A study of Homo sapiens with 9 samples.

Results

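WNT ligand genes, the Frizzled receptor genes FZD1 to FZD10, WNT coreceptor genes and the genes of the R-spondins and their receptors LGR4 and LGR6 were examined in 3 lines of SW480 cells. The set was given as a list of gene symbols and holds 41 of the 63677 genes counted in each library: 19 ligands, 10 Frizzled receptors, 6 coreceptors (LRP5, LRP6, ROR1, ROR2, RYK and PTK7), 4 R-spondins and the 2 LGR receptors. All 41 were found by their Ensembl identifiers. SW480 is a cell line from a human colon adenocarcinoma, and the untransfected parental line was the control. SW480-B is a single-cell clone of SW480 that carries a stably integrated construct in which the CMV promoter drives BASP1, selected with G418. SW480-gRNA-B-all cells express MS2-P65-HSF1 (hygromycin selection) and dCas9-VP64 with GFP, a transcriptional activator that does not cut DNA. They were cloned from a single cell and then received pooled guide RNAs directed to the promoter of the endogenous BASP1 gene (puromycin selection). The comparisons asked how expression of WNT pathway genes differs in cells that express BASP1, a signalling protein and transcriptional corepressor. No line with an empty vector or with the activator but no BASP1 guide was analysed here, so that BASP1, the constructs, drug selection and the choice of a clone cannot be told apart.

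WNT proteins are secreted, lipid-modified ligands that bind Frizzled receptors on the cell surface. With the coreceptors LRP5 or LRP6 they stop the destruction of β-catenin, which then activates TCF target genes; with ROR1, ROR2, RYK or PTK7 they act mainly through β-catenin-independent routes that govern cell polarity and movement. R-spondins bind LGR receptors and keep Frizzled receptors at the surface, and in the colon WNT signals maintain the stem cells of the crypt. SW480 cells carry a truncated APC protein, so that their β-catenin is stable without a ligand.

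Poly(A) RNA was sequenced from 3 libraries of each line (n = 3 per line, 9 in all), with 25238831 to 29355669 counts on genes per library. RNA was isolated in triplicate, and nothing states that the samples were separate cultures; p-values therefore measure the spread between these samples. BASP1 had 345, 233 and 19 counts in SW480 replicates 1 to 3, 6924, 7531 and 7083 in SW480-B and 4922, 9087 and 8988 in SW480-gRNA-B-all, with no overlap between SW480 and either other line. Its log2 fold change against SW480 was 5.29 in SW480-B and 5.21 in SW480-gRNA-B-all (edgeR, adjusted p = 0.0293 and 0.0250). Each of these BASP1 calls held in only 2 of 6 fits with a library left out. SW480 replicate 1 stood apart from its group: 20.6% and 30.8% of genes differed by more than 2-fold between it and replicates 2 and 3. SW480-gRNA-B-all replicates 2 and 3 were close to each other (2.10% of genes), though further apart than sampling noise allows, and results are also given with these 2 libraries summed into 1. Of 9 markers of colon epithelium, 7 reached 1 CPM (counts scaled to library size) and KRT20 and LGALS4 did not. The intestinal factor CDX2 was at 2.37 to 5.52 CPM in SW480-gRNA-B-all, against 30.4 to 41.9 in SW480 and 58.2 to 67.4 in SW480-B. VIL1 was at 98.8 to 344 CPM in SW480, 29.6 to 35.9 in SW480-B and 6.34 to 21.5 in SW480-gRNA-B-all, and EPCAM was at 460 to 751, 281 to 331 and 340 to 434 CPM in that order. KRT8 and KRT19 were also below SW480 in SW480-gRNA-B-all without overlap, whereas KRT18 and CDH1 overlapped. Summed markers of fibroblasts (7 genes, COL3A1 at 0 in all libraries) stayed between 2.90 and 10.9 CPM, of leukocytes (4 genes) between 0.413 and 2.87 CPM, and of endothelium (3 genes, PECAM1 at 0) between 0.689 and 4.34 CPM. The part of any of these markers in the results below was not tested. In a bulk sample, fewer cells that express a gene and less RNA per cell cannot be told apart.

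Every Frizzled receptor and coreceptor gene reached 1 CPM in at least 1 library, whereas the R-spondin genes and 6 of the ligand genes did not. Of the 41 genes, 31 reached this level: all 10 Frizzled receptors, all 6 coreceptors, LGR4, LGR6 and 13 of the 19 ligands. RSPO3 had 0 counts in every library. RSPO1, RSPO2, RSPO4 and the ligands WNT1, WNT2, WNT3A, WNT4, WNT8A and WNT9B stayed under 1 CPM throughout. WNT4 was the highest of these, with 3 to 26 counts in each library (at most 0.868 CPM), and was tested in SW480-gRNA-B-all relative to SW480, where it did not pass. A count of 0 allows a level of up to 3 counts, which is 0.100 to 0.116 CPM at this depth, for counting error only. RSPO2 had 6, 8 and 0 counts in SW480, 0, 1 and 0 in SW480-B and 0 in all 3 libraries of SW480-gRNA-B-all. RSPO2 passed the filter on low counts in no comparison. Its 14 counts in SW480, taken as exact, were 4.62-fold above a limit of 3 counts over SW480-gRNA-B-all, given library sizes. This ratio leaves out the counting error and spread of SW480, whose replicate 3 was itself at 0. With 3 of 4 R-spondin genes measured at trace levels and the other at 0, little R-spondin RNA was seen in any of the 3 lines, whereas RNA of the receptors LGR4 and LGR6 was present.

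**Figure D1:**
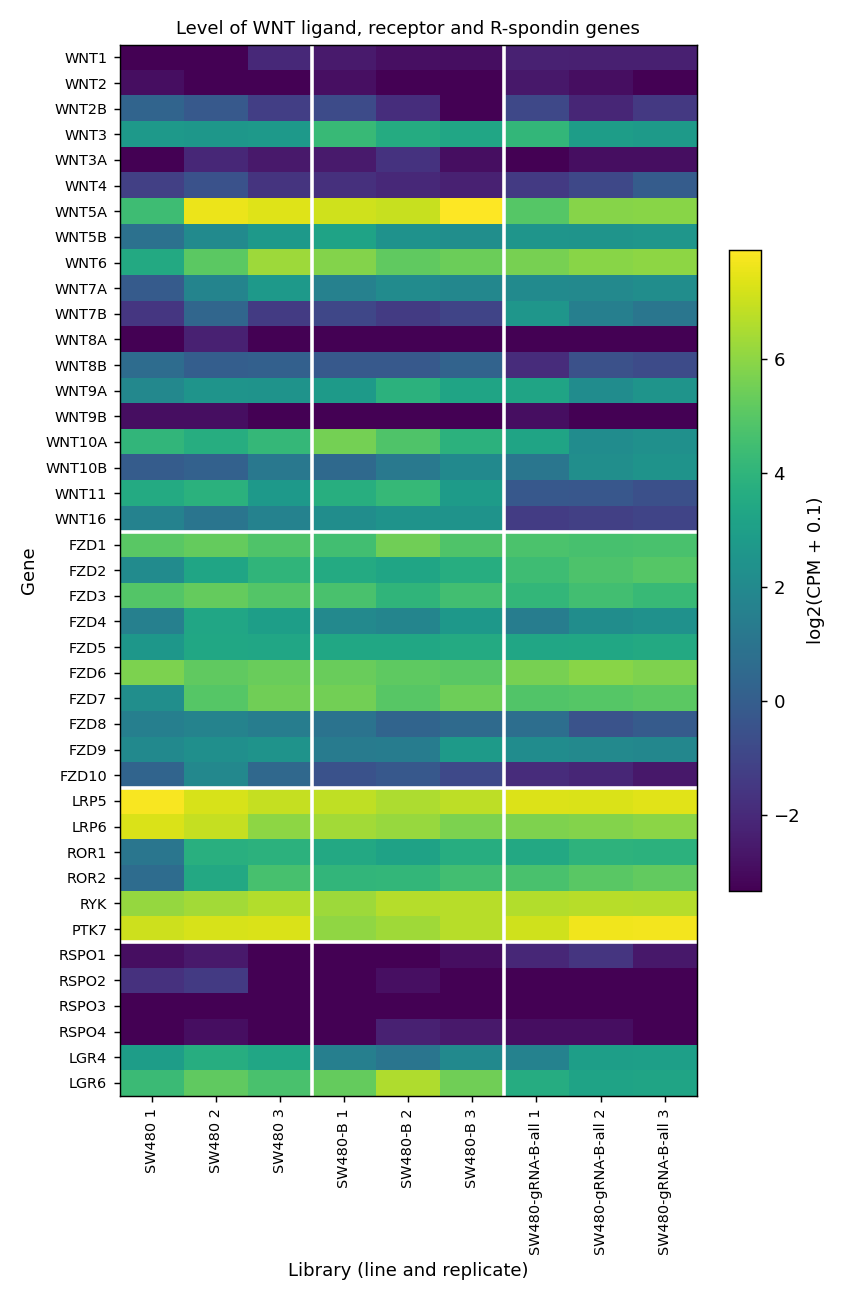
Level of each of the 41 genes (rows, grouped as ligands, Frizzled receptors, coreceptors and R-spondins with their receptors) in each of the 9 libraries (columns), coloured by log2(CPM + 0.1). The 4 R-spondin rows stay dark, and WNT11 and WNT16 darken in the 3 SW480-gRNA-B-all columns.

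In SW480-gRNA-B-all relative to SW480, 32 of the 41 genes passed the filter on low counts, and 4 of these were lower and 0 higher at an adjusted p under 0.05 and more than 2-fold (edgeR's quasi-likelihood test, Benjamini-Hochberg over all genes). These were the ligands WNT11 and WNT16, the receptor FZD10 and the R-spondin receptor LGR6. Their share of the tested genes was 12.5% (background: 4.66% of all 16100 genes tested were lower and 1.89% higher). The median log2 fold change of the 32 was 0.08, with 16 above and 16 below 0, and that of all genes was -0.05. The count depended on single libraries: it was 0 without SW480 replicate 2, 5 without SW480 replicate 1, 7 without SW480 replicate 3 and 1, WNT11, without any 1 of the SW480-gRNA-B-all libraries or with replicates 2 and 3 of that line summed.

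In SW480-B against SW480, none of the 31 tested genes passed (background: 1.34% of 16106 genes), whether or not the same-numbered libraries were paired. At an unadjusted p under 0.05 there were 8 (WNT3, WNT9A, WNT10A, WNT16, FZD10, PTK7, LGR4 and LGR6), which is 25.8% against 15.8% of all genes. DESeq2 called 2 of them, WNT3 higher and LGR4 lower, and LGR4 was also called by edgeR with no filter on low counts. The share of all genes that DESeq2 called was not counted. The median log2 fold change was 0.13 for the 31 genes and -0.0039 for all genes.

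Between the lines that express BASP1, 9 of these genes differed. In SW480-gRNA-B-all relative to SW480-B, 30 genes were tested, of which 6 were lower (WNT5A, WNT10A, WNT11, WNT16, FZD10 and LGR6) and 3 higher (WNT7B, FZD2 and PTK7). The background was 4.37% lower and 2.31% higher among all 15846 genes, against 20.0% and 10.0% of the members tested. The count of 9 was 6 without SW480-B replicate 1, 5 without SW480-B replicate 2, without SW480-gRNA-B-all replicate 2 or without its replicate 3, and was 10 without its replicate 1. It was 6 with all 9 libraries in 1 fit, where WNT5A, FZD2 and FZD10 were not called, and 4 with SW480-gRNA-B-all replicates 2 and 3 summed (WNT7B higher and WNT11, WNT16 and LGR6 lower). Any 2 of the 3 comparisons share 1 line's libraries, so that they are not independent of each other. BASP1 counts differed little between these 2 lines (log2 fold change -0.03, SE 0.24). The paper reports a shorter BASP1 transcript from the construct in SW480-B than from the endogenous gene in SW480-gRNA-B-all. Counts were not scaled to transcript length here, so that transcript numbers in these lines were not compared.

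**Figure D2:**
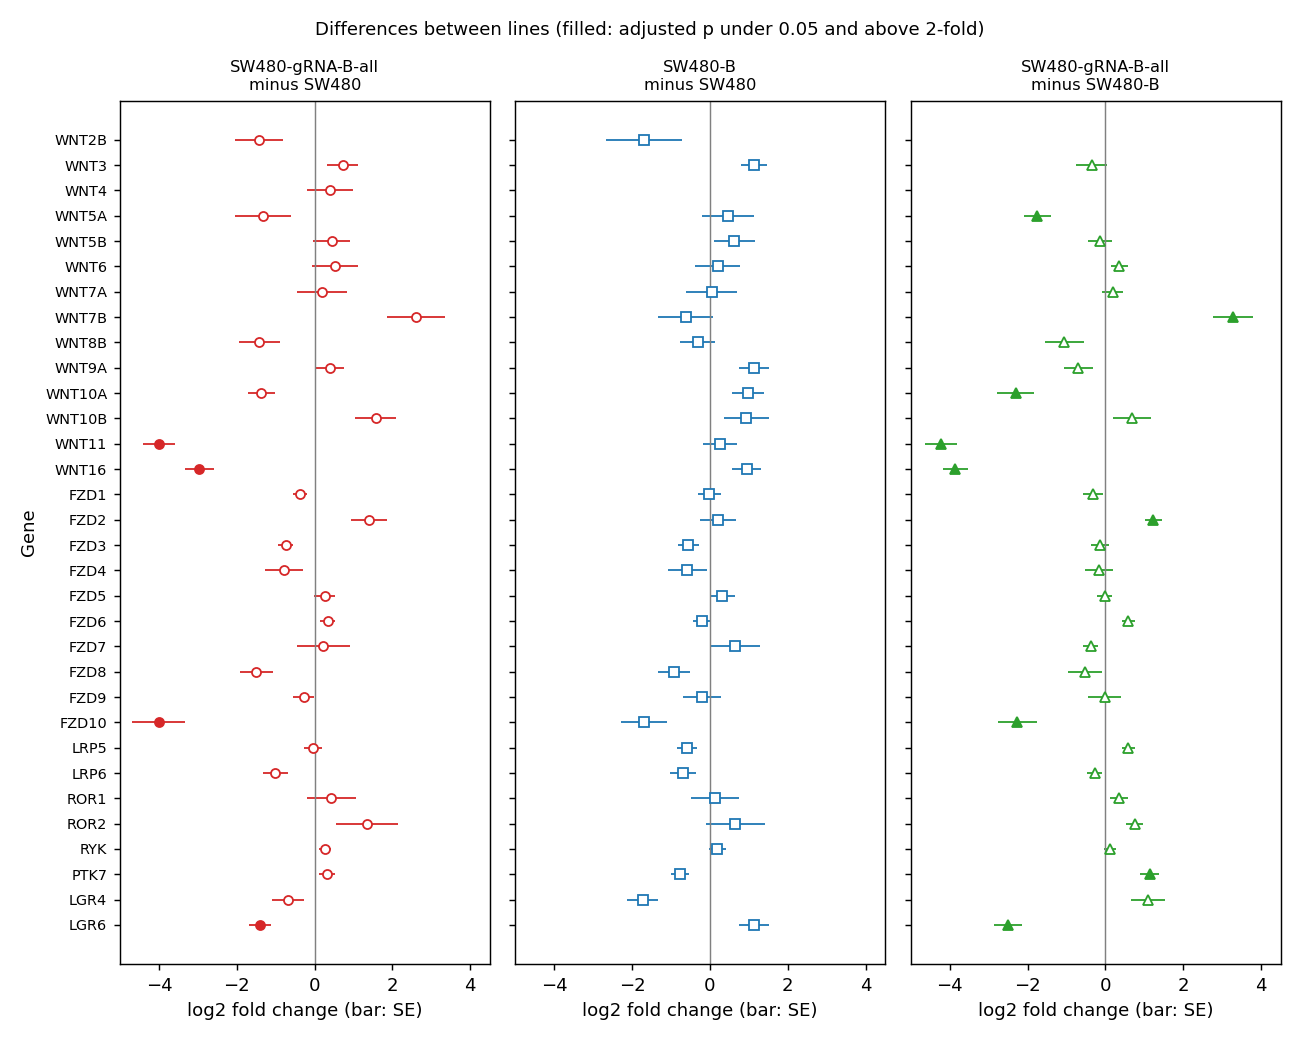
Log2 fold change of each tested gene (rows) in each of the 3 comparisons (panels), with bars for the standard error and filled symbols for genes that passed the test. Filled symbols are 4 in the left panel, all below 0, 0 in the middle panel, and 6 below and 3 above 0 in the right panel.

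Among the ligands, WNT11 and WNT16 were lower in SW480-gRNA-B-all cells than in both other lines. WNT11, a ligand of β-catenin-independent signalling, lies at chr11:75897369-75921780 on the minus strand (GRCh37). It was at 11.8, 14.4 and 6.55 CPM in SW480 replicates 1 to 3, at 13.1, 18.4 and 7.07 CPM in SW480-B, and at 0.745, 0.734 and 0.568 CPM in SW480-gRNA-B-all. Every SW480-gRNA-B-all library was below every library of the other lines, and SW480 and SW480-B overlapped. The log2 fold change was -4.00 (SE 0.40) against SW480, a 16.0-fold lower level (adjusted p = 0.00725, edgeR), and -4.22 (SE 0.41) against SW480-B (adjusted p = 0.00161). The call against SW480 was lost only without SW480 replicate 2 (log2 fold change -3.71, adjusted p = 0.0501), and the call against SW480-B held in all 6 fits with a library left out. Between SW480-B and SW480 it was 0.26 (SE 0.43, adjusted p = 0.805). An exon of WNT11 overlaps a gene on the opposite strand whose level was at most 0.0364 CPM.

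WNT16, a ligand at chr7:120965421-120981158 on the plus strand, was at 3.06, 2.00 and 3.06 CPM in SW480, at 4.44, 5.42 and 5.34 CPM in SW480-B and at 0.305, 0.334 and 0.401 CPM in SW480-gRNA-B-all. The 3 lines did not overlap, with SW480-B highest and SW480-gRNA-B-all lowest. The log2 fold change of SW480-gRNA-B-all was -2.96 (SE 0.38) against SW480 (adjusted p = 0.0116) and -3.85 (SE 0.33) against SW480-B (adjusted p = 0.000995). Between SW480-B and SW480 it was 0.94 (SE 0.37) and did not pass (adjusted p = 0.276). The call against SW480 was lost without SW480 replicate 2, without each library of SW480-gRNA-B-all and with its replicates 2 and 3 summed (log2 fold changes -3.10 to -2.86, adjusted p between 0.0501 and 0.0830), and the call against SW480-B held in all 6 fits with a library left out and with the 2 libraries summed.

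WNT10A and WNT6 are neighbours on chromosome 2, 6.62 kb apart on the plus strand (WNT6 at chr2:219724528-219738955, WNT10A at chr2:219745574-219764303), and only WNT10A passed a test. WNT10A, a ligand that signals through β-catenin, was at 16.7, 12.7 and 17.9 CPM in SW480, at 47.9, 28.3 and 14.7 CPM in SW480-B and at 9.28, 4.27 and 4.84 CPM in SW480-gRNA-B-all. The SW480-gRNA-B-all libraries were below all others. Its log2 fold change was -2.31 (SE 0.47) against SW480-B (adjusted p = 0.0215) and -1.37 (SE 0.35) against SW480, which did not pass (adjusted p = 0.0600). The call against SW480-B was lost without SW480-B replicate 1 or 2, without SW480-gRNA-B-all replicate 2 or 3, and with the latter 2 summed (log2 fold changes -2.36 to -1.81, adjusted p between 0.0687 and 0.0858). WNT6 was at 11.2, 33.5 and 76.9 CPM in SW480, at 57.3, 36.6 and 42.1 CPM in SW480-B and at 49.6, 61.1 and 64.7 CPM in SW480-gRNA-B-all, and the 3 lines overlapped. Its log2 fold change was 0.52 (SE 0.60) against SW480 and 0.36 (SE 0.21) against SW480-B, neither of which passed (adjusted p = 0.588 and 0.337).

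The RefSeq promoter table (GRCh38.p14) holds a window of 300 bases, 250 before and 50 after the start, for 31 of the 41 genes (37 windows). None of the 37 windows holds the TCF core ATCAAAG or TTCAAAG on either strand, against 6.86% of all 35116 windows, and the absence says only that these letters are not in these windows. The members' windows were rich in CG dinucleotides, with a median of 30 per window (range 4 to 53) against 14 over all windows, and a median GC content of 72.0% against 58.7%. The 250 bases before the start are printed for WNT16, which fell in SW480-gRNA-B-all, and for the neighbours WNT10A and WNT6, of which only WNT10A fell against SW480-B, with CG dinucleotides in capitals. They lie on the plus strand at chr7:121328750-121328999 (WNT16), chr2:218880602-218880851 (WNT10A) and chr2:218859555-218859804 (WNT6) of GRCh38.p14.
WNT16: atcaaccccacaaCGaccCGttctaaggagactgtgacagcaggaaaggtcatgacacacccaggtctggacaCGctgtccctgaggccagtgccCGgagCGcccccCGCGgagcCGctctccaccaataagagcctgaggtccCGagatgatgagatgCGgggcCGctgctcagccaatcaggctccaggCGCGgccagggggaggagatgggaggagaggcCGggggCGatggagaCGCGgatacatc
WNT10A: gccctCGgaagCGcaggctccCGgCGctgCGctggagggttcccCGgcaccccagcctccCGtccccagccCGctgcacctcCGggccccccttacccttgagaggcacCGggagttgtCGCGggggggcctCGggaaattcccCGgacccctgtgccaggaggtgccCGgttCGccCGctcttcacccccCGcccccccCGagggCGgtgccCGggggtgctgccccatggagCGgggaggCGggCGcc
WNT6: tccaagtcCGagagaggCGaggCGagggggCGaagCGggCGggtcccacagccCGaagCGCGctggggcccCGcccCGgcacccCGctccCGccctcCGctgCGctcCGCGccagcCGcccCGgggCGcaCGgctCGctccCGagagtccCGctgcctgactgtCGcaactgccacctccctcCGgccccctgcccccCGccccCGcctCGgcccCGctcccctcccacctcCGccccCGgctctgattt
The 3 stretches hold 17, 24 and 32 CG dinucleotides in that order. Methylation was not measured in these libraries. Promoters of WNT7B, WNT10B, WNT11, FZD2, FZD3, FZD6, FZD7, FZD10, LRP6 and RSPO2 were not used here.

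WNT5A, the classical ligand of β-catenin-independent signalling (chr3:55499743-55524567, minus strand), was lower in SW480-gRNA-B-all cells than in SW480-B. It was at 21.6, 191 and 166 CPM in SW480, at 138, 127 and 243 CPM in SW480-B and at 31.2, 59.6 and 60.8 CPM in SW480-gRNA-B-all. SW480 replicate 1 was below all 8 other libraries, and SW480-gRNA-B-all lay below SW480-B without overlap. The log2 fold change against SW480-B was -1.75 (SE 0.34, adjusted p = 0.0177), which held in all 6 fits with a library left out and not with SW480-gRNA-B-all replicates 2 and 3 summed (log2 fold change -1.88, adjusted p = 0.0506). With all 9 libraries in 1 fit it was -1.74 and did not pass (adjusted p = 0.168). Against SW480 it was -1.33 (SE 0.71, adjusted p = 0.261), and without SW480 replicate 1 it was -1.82 and passed (adjusted p = 0.0267). Between SW480-B and SW480 it was 0.46 (SE 0.66, adjusted p = 0.770).

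WNT7B was the ligand with the largest difference in the other direction. This ligand (chr22:46316246-46373042, minus strand) was at 0.241, 1.21 and 0.291 CPM in SW480, at 0.425, 0.285 and 0.389 CPM in SW480-B and at 5.93, 2.84 and 2.00 CPM in SW480-gRNA-B-all. All SW480-gRNA-B-all libraries were above all others, with replicate 1 the highest. Its log2 fold change against SW480-B was 3.27 (SE 0.51), a 9.68-fold higher level (adjusted p = 0.00816), and held in all 6 fits with a library left out. Against SW480 it was 2.61 (SE 0.75) and did not pass (adjusted p = 0.0759), whereas DESeq2 called it. Between SW480-B and SW480 it was -0.62 (SE 0.71, adjusted p = 0.708). Exons of WNT7B overlap those of a gene on the same strand that had 0 counts in every library. Fragments on several genes were not counted for any gene, so that this 0 does not show whether WNT7B lost counts there.

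WNT3, WNT9A and WNT5B, the remaining ligands with a mean of at least 5 CPM in some line, passed no test. WNT3, which signals through β-catenin, was at 6.78, 6.03 and 6.40 CPM in SW480, at 18.9, 11.8 and 10.0 CPM in SW480-B and at 17.5, 7.68 and 6.81 CPM in SW480-gRNA-B-all. SW480 was the lowest line, without overlap with either other line, though SW480-gRNA-B-all replicate 3 (6.81) was barely above SW480 replicate 1 (6.78). The log2 fold change of WNT3 was 1.12 (SE 0.33, adjusted p = 0.170) in SW480-B and 0.73 (SE 0.40, adjusted p = 0.267) in SW480-gRNA-B-all relative to SW480, and -0.36 (SE 0.40, adjusted p = 0.632) between these lines. Without SW480-gRNA-B-all replicate 1, that of SW480-gRNA-B-all relative to SW480 was 0.18 (edgeR, adjusted p = 0.675). WNT9A was at 3.68, 5.58 and 5.31 CPM in SW480, at 6.92, 15.01 and 9.40 CPM in SW480-B and at 9.35, 4.37 and 5.54 CPM in SW480-gRNA-B-all. SW480-B was above SW480 without overlap (log2 fold change 1.13, SE 0.38, adjusted p = 0.215), and SW480-gRNA-B-all overlapped with both (0.40 against SW480, SE 0.37, adjusted p = 0.502). WNT5B, a close relative of WNT5A, was at 1.76, 4.07 and 6.69 CPM in SW480, at 8.97, 5.28 and 4.56 CPM in SW480-B and at 5.69, 5.47 and 5.88 CPM in SW480-gRNA-B-all, and the lines overlapped.

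Of the other ligands, WNT10B, which lies 6.59 kb from WNT1 on chromosome 12, was at 0.861, 1.03 and 2.15 CPM in SW480, at 1.35, 2.25 and 3.92 CPM in SW480-B and at 2.03, 4.64 and 5.44 CPM in SW480-gRNA-B-all. SW480 replicate 3 exceeded SW480-gRNA-B-all replicate 1, and the log2 fold change of 1.58 (SE 0.53) against SW480 did not pass (adjusted p = 0.109); it was 2.11 and passed without SW480 replicate 3 (adjusted p = 0.0435), and DESeq2 called it. Mean levels of WNT7A were 3.59, 3.61 and 4.12 CPM in SW480, SW480-B and then SW480-gRNA-B-all. Those of WNT2B were 0.752, 0.227 and 0.280 CPM and those of WNT8B 1.13, 0.884 and 0.424 CPM in the same order, and none of these 3 genes passed a test. WNT9B lies 46 bases from WNT3 and WNT3A 59.1 kb from WNT9A, and both WNT9B and WNT3A had at most 6 counts in any library.

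**Figure D3:**
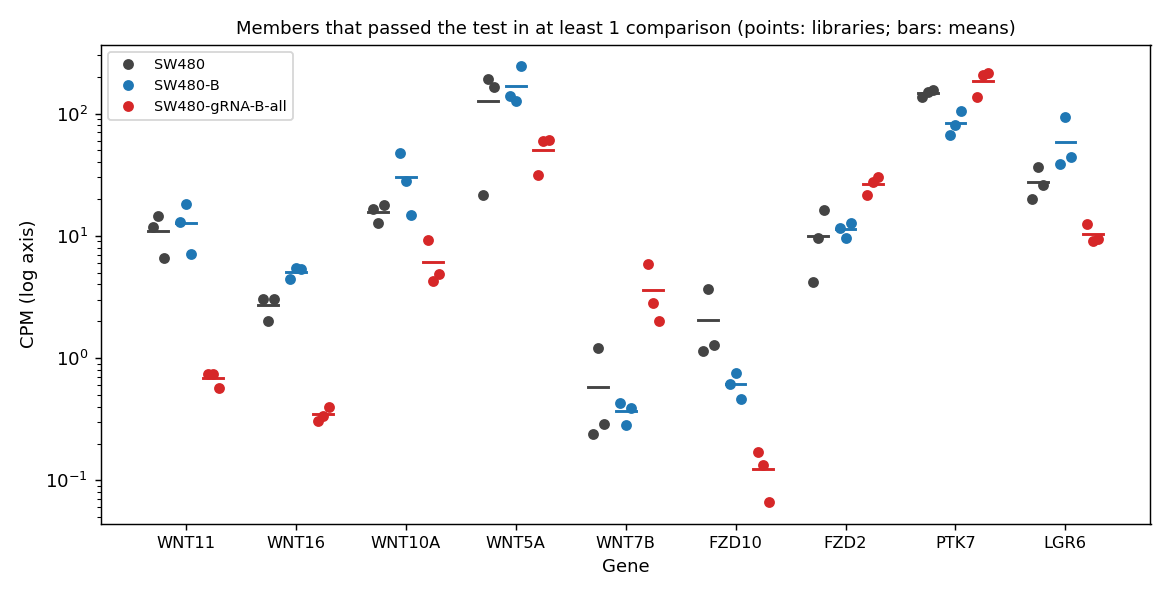
CPM (log axis) of the 9 genes that passed the test in at least 1 comparison, with a point for each library and a bar for the mean of each line (n = 3). WNT11, WNT16, WNT10A, FZD10 and LGR6 have their 3 SW480-gRNA-B-all points below all others, and WNT7B and FZD2 have them above all others.

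Set against exon length, WNT6 and WNT5A had the highest mean ligand levels in each line. The level per kb of exon is the mean CPM divided by the length of all annotated exons of the gene (GENCODE, GRCh37). This length covers every annotated transcript and not only those made in these cells, so that genes are compared only roughly. In SW480 it was 23.6 CPM per kb for WNT6, 17.7 for WNT5A, 5.39 for WNT10A and 4.61 for WNT11, and the libraries of WNT5A overlapped with those of the 3 others, as did those of WNT10A and WNT11 with each other. In SW480 replicate 1 WNT5A came after WNT6, WNT10A and WNT11. In SW480-B it was 26.4 for WNT6 and 23.7 for WNT5A, whose libraries overlapped, and 10.4 for WNT10A and 5.41 for WNT11, which overlapped too. In SW480-gRNA-B-all WNT6 was at 34.0 CPM per kb and WNT5A at 7.06, without overlap, followed by WNT10A at 2.10 and WNT3 at 1.98, which overlapped.

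Given as a share of the summed level per kb of all 19 ligands, WNT6 held 36.5% ± 14.3 in SW480, 34.3% ± 4.30 in SW480-B and 65.2% ± 3.03 in SW480-gRNA-B-all (mean ± SD, n = 3). WNT5A held 27.3% ± 15.2, 31.1% ± 11.7 and 13.4% ± 3.53, WNT10A 12.3% ± 9.03, 13.4% ± 6.40 and 4.17% ± 2.27, and WNT11 10.9% ± 8.33, 7.27% ± 3.83 and 0.560% ± 0.124, in the same order. The SW480 means of WNT10A and WNT11 rested on replicate 1: WNT10A held 22.7%, 6.92% and 7.20% in SW480 replicates 1 to 3, and WNT11 held 19.8%, 9.68% and 3.25%. The summed level of the ligands was 57.6 ± 30.2, 76.4 ± 8.68 and 52.0 ± 4.76 CPM per kb. In SW480 replicates 1 to 3 it was 25.2, 62.8 and 84.9, a range that holds all libraries of the other lines but SW480-B replicate 1 (85.0). The larger share of WNT6 in SW480-gRNA-B-all stood beside a WNT6 level that overlapped with those of the other lines, and beside WNT10A, WNT11 and WNT5A levels that were lower than in SW480-B. These shares are a description, since the levels they are made of were tested gene by gene.

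**Figure D4:**
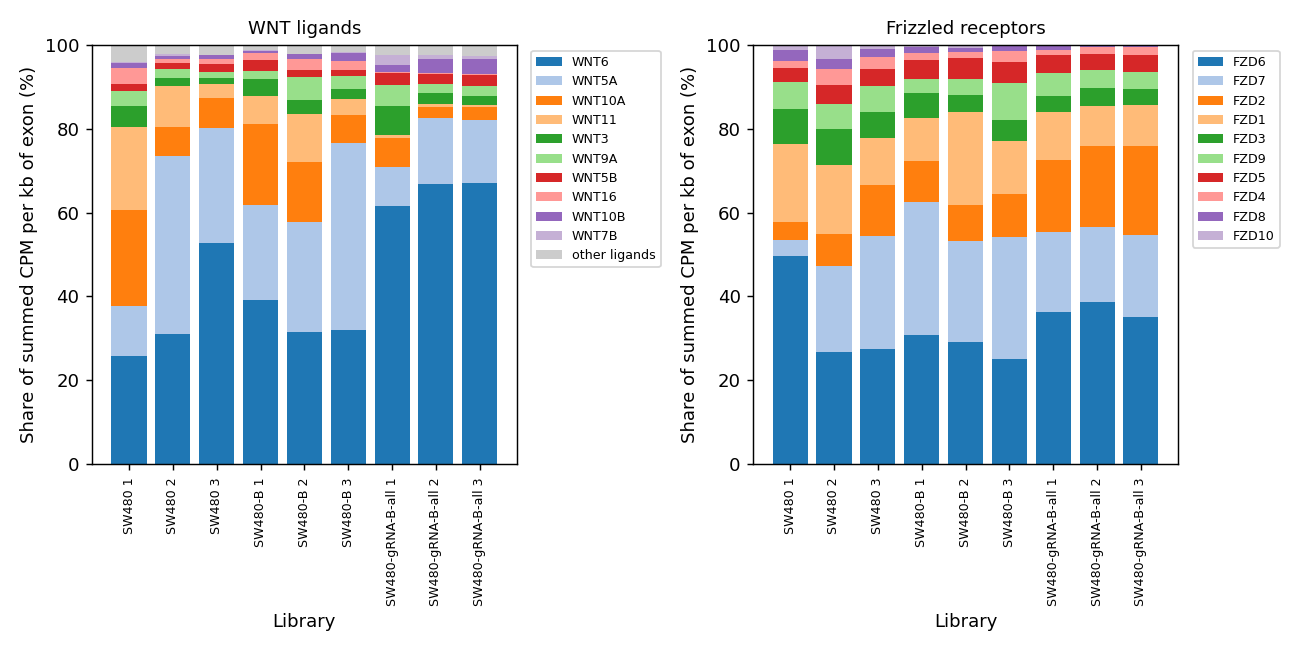
Share (%) of each gene in the summed CPM per kb of exon of the 19 ligands (left) and the 10 Frizzled receptors (right), a stacked bar for each of the 9 libraries. WNT6 takes 61.7% to 67.0% of the ligand bar in the SW480-gRNA-B-all libraries, and FZD2 takes 17.2% to 21.2% of the Frizzled bar there.

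Among the Frizzled receptors of SW480-gRNA-B-all, FZD10 fell against both other lines and FZD2 rose against SW480-B. FZD10 (chr12:130647004-130650285, plus strand) was at 1.14, 3.69 and 1.27 CPM in SW480, at 0.618, 0.749 and 0.459 CPM in SW480-B and at 0.169, 0.134 and 0.0668 CPM in SW480-gRNA-B-all. These last levels rest on 5, 4 and 2 counts. The 3 lines did not overlap, and the order was SW480, SW480-B, SW480-gRNA-B-all. By edgeR, the log2 fold change of SW480-gRNA-B-all was -4.01 (SE 0.68) against SW480 (adjusted p = 0.0229) and -2.27 (SE 0.50) against SW480-B (adjusted p = 0.0289), and that of SW480-B against SW480 was -1.70 (SE 0.59) and did not pass (adjusted p = 0.224). The call against SW480 was lost without SW480 replicate 2 (log2 fold change -3.22) and without each SW480-gRNA-B-all library, with adjusted p between 0.0715 and 0.106. The call against SW480-B was lost without SW480-B replicate 1 or 2 and without SW480-gRNA-B-all replicate 2 or 3 (adjusted p between 0.0725 and 0.170), and neither call held with those 2 libraries summed (adjusted p = 0.0954 and 0.126). With all 9 libraries in 1 fit the difference from SW480-B was -2.27 and did not pass (adjusted p = 0.0775).

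FZD2, a receptor for WNT5A among other ligands (chr17:42634852-42638630, plus strand), was at 4.17, 9.54 and 16.4 CPM in SW480, at 11.6, 9.62 and 12.7 CPM in SW480-B and at 21.6, 27.8 and 30.6 CPM in SW480-gRNA-B-all. All SW480-gRNA-B-all libraries were above all others. The log2 fold change was 1.23 (SE 0.21) against SW480-B (adjusted p = 0.0119) and 1.40 (SE 0.46) against SW480, where SW480 replicate 1 was lowest and the test did not pass (adjusted p = 0.106). Without SW480 replicate 3 the latter was 1.97 and passed (adjusted p = 0.0278), and DESeq2 called it. The call against SW480-B was lost without SW480-B replicate 2, without SW480-gRNA-B-all replicate 2 or 3 and with these 2 summed (log2 fold changes 1.12 to 1.22, adjusted p between 0.0515 and 0.0724). It was also lost with all 9 libraries in 1 fit (log2 fold change 1.24, adjusted p = 0.130). SW480-B and SW480 overlapped (log2 fold change 0.21, SE 0.47, adjusted p = 0.864).

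The 8 other Frizzled receptors passed no test. FZD6, which acts mainly in planar cell polarity, was at 52.1, 36.6 and 40.4 CPM in SW480, at 40.3, 34.9 and 33.4 CPM in SW480-B and at 49.1, 59.9 and 54.5 CPM in SW480-gRNA-B-all. The last line was above SW480-B without overlap (log2 fold change 0.59, SE 0.16, adjusted p = 0.0636) and overlapped with SW480 (0.33, SE 0.19, adjusted p = 0.277). FZD7, a receptor of intestinal stem cells, was at 4.54, 31.3 and 44.5 CPM in SW480, at 46.5, 32.4 and 43.8 CPM in SW480-B and at 29.2, 30.8 and 34.4 CPM in SW480-gRNA-B-all. SW480 replicate 1 was far below all others, and the log2 fold change of SW480-gRNA-B-all relative to SW480 was 0.23 (SE 0.67) with it and -0.26 without it.

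FZD3 was at 30.0, 38.6 and 29.7 CPM in SW480, at 26.1, 16.2 and 22.6 CPM in SW480-B and at 17.6, 22.6 and 19.2 CPM in SW480-gRNA-B-all. SW480 was above both other lines without overlap, and the log2 fold change of SW480-gRNA-B-all against it was -0.74 (SE 0.19, adjusted p = 0.0628). FZD1 was at 32.8, 38.3 and 28.3 CPM in SW480, at 23.0, 45.2 and 28.3 CPM in SW480-B and at 26.5, 25.1 and 25.8 CPM in SW480-gRNA-B-all. FZD5, a receptor of the gut epithelium, was at 6.13 CPM in SW480 replicate 1 and at 10.1 to 11.5 CPM in the 8 other libraries. FZD4 was at 2.93, 9.89 and 7.86 CPM in SW480, at 3.83, 3.42 and 6.22 CPM in SW480-B and at 2.61, 4.47 and 5.01 CPM in SW480-gRNA-B-all, and the lines overlapped. FZD8 and FZD9 had means under 5 CPM in every line. FZD8 was at 2.85, 1.46 and 1.01 CPM on average in SW480, SW480-B and then SW480-gRNA-B-all, and its log2 fold change of -1.50 (SE 0.42) in SW480-gRNA-B-all relative to SW480 did not pass (adjusted p = 0.0728), whereas DESeq2 called it. FZD9 was at 4.70, 3.94 and 3.89 CPM on average in the same order.

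Per kb of exon, FZD6 was the first of the Frizzled receptors in SW480 (10.6 CPM per kb) and SW480-gRNA-B-all (13.4), and FZD6 and FZD7 were level in SW480-B (8.90 and 8.92). In SW480-gRNA-B-all FZD2 (7.05) and FZD7 (6.87) came next, with overlapping libraries, and FZD1 followed at 3.75. FZD2 held 7.95% ± 3.90 of the summed Frizzled level per kb in SW480, 9.49% ± 0.811 in SW480-B and 19.2% ± 1.99 in SW480-gRNA-B-all. FZD10 held 1.93%, 0.597% and 0.105% in the same order. The summed level was 31.8 ± 5.34, 31.4 ± 1.72 and 36.5 ± 2.75 CPM per kb.

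Among the coreceptors, PTK7 was the only gene that passed a test. PTK7, a receptor-like protein without kinase activity that acts in planar cell polarity (chr6:43044045-43129457, plus strand), was at 136, 149.6 and 155 CPM in SW480, at 67, 80.1 and 106 CPM in SW480-B and at 137, 205 and 215 CPM in SW480-gRNA-B-all. SW480-B was below both other lines without overlap, and SW480-gRNA-B-all overlapped with SW480. The log2 fold change of SW480-gRNA-B-all was 1.14 (SE 0.24) against SW480-B (adjusted p = 0.0239) and 0.33 (SE 0.20) against SW480 (adjusted p = 0.320), and that of SW480-B against SW480 was -0.77 (SE 0.23, adjusted p = 0.177). The call was lost without SW480-B replicate 1 or 2, without SW480-gRNA-B-all replicate 2 or 3 and with these 2 summed (log2 fold changes 1.00 to 1.10, adjusted p between 0.0800 and 0.104).

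LRP5 and LRP6 are the coreceptors of β-catenin signalling, and neither passed a test. LRP5 was at 224, 151 and 124 CPM in SW480, at 116, 93.2 and 112 CPM in SW480-B and at 159, 154 and 173 CPM in SW480-gRNA-B-all. SW480-B was below both other lines without overlap, with a log2 fold change of -0.59 (SE 0.27, adjusted p = 0.326) against SW480, and SW480-gRNA-B-all was above it by 0.59 (SE 0.16, adjusted p = 0.0574). LRP6 was at 157, 122 and 64.2 CPM in SW480, at 81.6, 73.4 and 52.8 CPM in SW480-B and at 53.3, 56.4 and 62.5 CPM in SW480-gRNA-B-all. SW480 replicate 3 was close to the other lines, and the log2 fold change of SW480-gRNA-B-all relative to SW480 was -1.004 (SE 0.31, adjusted p = 0.0941) with it and -1.26 without it, when the test passed (adjusted p = 0.0101). That of SW480-B against SW480 was -0.69 (SE 0.34, adjusted p = 0.365).

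ROR2 and ROR1, receptor tyrosine kinases that bind WNT5A, were lowest in SW480 replicate 1. ROR2 was at 1.48, 11.03 and 24.9 CPM in SW480, at 17.0, 17.4 and 22.6 CPM in SW480-B and at 25.6, 33.4 and 36.9 CPM in SW480-gRNA-B-all. The last line was above both others without overlap, and neither difference passed: the log2 fold change was 1.35 (SE 0.81, adjusted p = 0.306) against SW480 and 0.75 (SE 0.21, adjusted p = 0.0653) against SW480-B. ROR1 was at 2.03, 13.6 and 14.7 CPM in SW480, at 11.1, 8.77 and 12.6 CPM in SW480-B and at 10.9, 15.4 and 14.8 CPM in SW480-gRNA-B-all. By edgeR, its log2 fold change of SW480-gRNA-B-all relative to SW480 was 0.43 (SE 0.64, adjusted p = 0.682). RYK, a WNT receptor of the β-catenin-independent kind, was at 71.3 to 105 CPM in all 9 libraries, and its log2 fold change of SW480-gRNA-B-all relative to SW480 was 0.27 (SE 0.16, adjusted p = 0.312).

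LGR4 and LGR6, the R-spondin receptors among the 41 genes, had different orders of the lines. LGR6 (chr1:202162927-202288909, plus strand) was at 20.0, 36.3 and 25.9 CPM in SW480, at 38.4, 94.6 and 44.2 CPM in SW480-B and at 12.5, 9.11 and 9.48 CPM in SW480-gRNA-B-all. The 3 lines did not overlap, with SW480-B highest and its replicate 2 well above the rest. By edgeR, the log2 fold change of SW480-gRNA-B-all was -2.51 (SE 0.35) against SW480-B (adjusted p = 0.00577), which held in all 6 fits with a library left out and with replicates 2 and 3 summed. Against SW480 it was -1.41 (SE 0.28, adjusted p = 0.0323), and this call was lost without SW480 replicate 2, without each SW480-gRNA-B-all library and with replicates 2 and 3 summed (log2 fold changes -1.56 to -1.12, adjusted p between 0.0746 and 0.143). SW480-B was higher than SW480 by 1.14 on the log2 scale (SE 0.38), which did not pass (adjusted p = 0.215).

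LGR4 was at 7.54, 12.6 and 9.97 CPM in SW480, at 2.82, 2.00 and 3.99 CPM in SW480-B and at 3.05, 7.81 and 7.98 CPM in SW480-gRNA-B-all. SW480-B was below SW480 without overlap, and SW480-gRNA-B-all overlapped with both. The log2 fold change of SW480-B against SW480 was -1.73 (SE 0.40, adjusted p = 0.0925), that of SW480-gRNA-B-all relative to SW480 -0.68 (SE 0.41, adjusted p = 0.316) and that of SW480-gRNA-B-all relative to SW480-B 1.09 (SE 0.43, adjusted p = 0.168). The last was 1.43 and passed without SW480-gRNA-B-all replicate 1 (adjusted p = 0.0485).

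The parental line had the widest spread among these genes. Of the 25 members that passed a test or had a mean of at least 5 CPM in some line, 10 differed by more than 3-fold between the highest and the lowest library of SW480, against 1 in SW480-B (WNT10A) and 0 in SW480-gRNA-B-all. The ratio of the highest to the lowest SW480 library was 16.8 for ROR2, 9.79 for FZD7, 8.83 for WNT5A, 7.25 for ROR1 and 6.88 for WNT6. In each of these 5 genes the lowest library was SW480 replicate 1, the library that also stood apart over all genes. In WNT3, WNT11, WNT16, WNT10A, FZD1, FZD3, FZD6, LRP5 and LRP6 SW480 replicate 1 was not the lowest of its line.

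**Figure D5:**
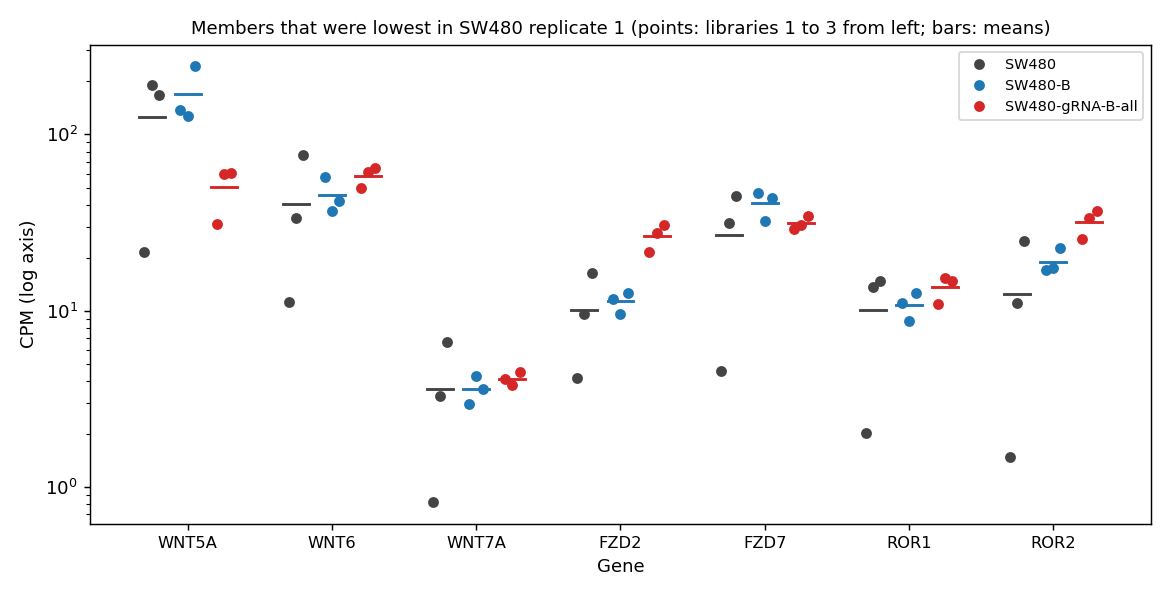
CPM (log axis) in each library of 7 genes whose lowest SW480 library was replicate 1, with replicates 1 to 3 from left to right in each line and a bar for the mean (n = 3). The leftmost SW480 point of WNT5A (21.6 CPM), FZD7 (4.54 CPM) and ROR2 (1.48 CPM) lies far below the other points of the same gene in SW480.

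The authors drew 9 of these genes in a heat map of WNT genes, a choice made on these same libraries and thus not independent evidence of a direction. They are WNT7B, WNT10A, WNT10B, WNT11, WNT16, FZD2, FZD3, FZD8 and FZD10. In SW480-gRNA-B-all relative to SW480, 3 of the 9 passed the test by edgeR, all lower (background: 4.66% of all genes tested lower and 1.89% higher). DESeq2 also called WNT7B, WNT10A, WNT10B, FZD2 and FZD8, and its share over all genes was not counted. In SW480-B against SW480, 0 of the 9 passed by edgeR (background: 1.34% of all genes tested in either direction) or by DESeq2. There WNT11, WNT16 and WNT10A had log2 fold changes of 0.26, 0.94 and 0.98, against -4.00, -2.96 and -1.37 in SW480-gRNA-B-all.

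Other genes of the pathway were counted in 6 lists (56 genes): ligand modification and secretion, secreted antagonists, receptor turnover and antagonist receptors, glypicans, cytoplasmic transducers, and planar cell polarity. In SW480-gRNA-B-all relative to SW480, 46 were tested and 8 were lower and 0 higher (background 4.66% and 1.89% of all genes). In SW480-B against SW480, 6 of 46 were lower and 0 higher (background 1.34% in either direction). In SW480-gRNA-B-all relative to SW480-B, 1 of 42 was lower and 2 were higher (background 4.37% and 2.31%). The 8 were NOTUM, which removes the lipid of WNT proteins, the secreted antagonists DKK4 and SOSTDC1, LGR5, the ubiquitin ligase ZNRF3, which clears Frizzled receptors from the surface, AXIN2, CTNNB1, the gene of β-catenin, and DAAM2. Of the 6 lower in SW480-B, 5 were among these 8 (NOTUM, DKK4, SOSTDC1, LGR5 and DAAM2), with the same SW480 libraries as control. DKK4 was at 9.13 ± 2.30 CPM in SW480, 0.256 ± 0.106 in SW480-B and 0.112 ± 0.0523 in SW480-gRNA-B-all (mean ± SD, n = 3). NOTUM was at 269 ± 92.1 CPM in SW480, 70.4 ± 25.1 in SW480-B and 31.7 ± 18.7 in SW480-gRNA-B-all. LGR5, the third R-spondin receptor and a stem cell marker, was at 8.93 ± 6.33 CPM, 0.0354 ± 0.0353 and 0.0898 ± 0.0709 in the same order. Its last 2 means lie below the level of 3 counts (0.100 to 0.116 CPM), and the DKK4 mean of 0.112 lies near it. These 3 genes passed in both lines against SW480 (edgeR, adjusted p between 0.00478 and 0.0490); with a library left out, the calls of DKK4 held in 5 of 6 fits in SW480-gRNA-B-all and 4 of 6 in SW480-B, those of NOTUM in 3 and 1 and those of LGR5 in 2 and 3. AXIN2, a scaffold of the β-catenin destruction complex, was lower in SW480-gRNA-B-all by a log2 fold change of -1.71 against SW480 (SE 0.31, adjusted p = 0.0255, held in 2 of 6 fits) and of -1.71 against SW480-B (SE 0.28, adjusted p = 0.0101, held in all 6).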

How the data were processed

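The authors sequenced poly(A) RNA from stranded libraries on an Illumina NovaSeq instrument, aligned the reads to GRCh37 and deposited raw counts per Ensembl gene, 1 file per library; the counting program and its strand setting are not given in the sources used here. Fragments on no gene (5.22% to 9.93%) or on several genes (3.09% to 3.44%) stayed out of library sizes. Of 63677 identifiers, 55665 were matched to symbols. RNA quality metrics were not used here.

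Each pair of lines was tested over its 6 libraries with edgeR 4.0.16 in R 4.3.3 (filterByExpr with a least count of 10 and a least total of 15, TMM, glmQLFit robust, glmQLFTest). A gene was called at a Benjamini-Hochberg adjusted p under 0.05 over all genes tested and more than 2-fold. The SE is the log2 fold change over the square root of F. CPM uses TMM factors over 9 libraries. The tests were tested on simulated data. Values per library are given for members called or with a mean of at least 5 CPM in a line, and for others by range or count. The members and lists were chosen with earlier results of these data known.

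Alternatives were RLE size factors, no filter, 1 CPM in 3 libraries, all 9 libraries in 1 fit, a replicate block, each library left out, SW480-gRNA-B-all replicates 2 and 3 summed, no fold limit, and DESeq2 1.42.0. Deviations of same-numbered libraries from their line's mean correlated at 0.287, 0.324 and 0.392 for SW480-B and SW480. They correlated at 0.289, -0.036 and 0.263 for SW480-gRNA-B-all and SW480, and at 0.233, -0.088 and 0.240 for SW480-gRNA-B-all and SW480-B. Unless the replicate block is named, printed values are from fits without pairing. Under the block, LGR6 in SW480-B against SW480 did not pass either (edgeR, adjusted p = 0.0543). The replicate number comes from the labels.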

Additional observations from a re-analysis of the deposited data

Results flagged for a closer look

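The levels of 9 members differed between the lines that express BASP1, by the test of SW480-gRNA-B-all against SW480-B itself (edgeR, Benjamini-Hochberg adjusted p under 0.05 and more than 2-fold). The log2 difference was -4.22 for WNT11, -3.85 for WNT16, -2.51 for LGR6, -2.31 for WNT10A, -2.27 for FZD10 and -1.75 for WNT5A. It was 3.27 for WNT7B, 1.23 for FZD2 and 1.14 for PTK7. In all 9 genes the 3 libraries of one line lay on one side of the 3 libraries of the other. The genes were called on these same libraries, so that this is no separate evidence, and its share over all genes was not counted. WNT11, WNT16, WNT5A, WNT7B and LGR6 passed whichever library was left out, and WNT11, WNT16, WNT7B and LGR6 also with SW480-gRNA-B-all replicates 2 and 3 summed.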

How the results depend on the processing

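For 51 log2 fold changes of named members there were 647 alternative values. Of these, 583 kept direction and side of the threshold, 40 kept the direction and lost the call, 18 gained a call and 6 reversed. All 40 losses came from the called differences (4 and 9 in the counts below), since no other difference can lose a call. Most of the 583 values were of differences without a call, so that 583 does not measure how stable the calls were. The reversals were of differences without a call, each on leaving out 1 library, with these ranges over the 6 libraries left out. In SW480-B against SW480 they were -0.076 to 0.55 for WNT11 (negative without SW480-B replicate 2), -0.998 to 0.48 for WNT7B (positive without SW480 replicate 2), -0.042 to 0.87 for WNT5A and -0.17 to 0.76 for FZD2 (both negative without SW480 replicate 1). In SW480-gRNA-B-all against SW480 they were -0.26 to 0.81 for FZD7 and -0.038 to 0.81 for ROR1 (both negative without SW480 replicate 1). The number of members called in SW480-gRNA-B-all against SW480 (4) was 9 with DESeq2 (3 higher and 6 lower), 1 with replicates 2 and 3 of that line summed, and 0 to 7 with a library left out. In SW480-B against SW480 (0) it was 2 with DESeq2, 1 with no filter, and 0 to 0 with a library left out. In SW480-gRNA-B-all against SW480-B (9) it was 4 with the libraries summed, 6 with all 9 libraries in 1 fit (WNT5A, FZD2 and FZD10 not called) and 5 to 10 with a library left out. The other alternatives moved these counts by at most 1.5 times, and the causes were not tested. The share of all genes that DESeq2 called was not counted, so that its counts have no background beside them. With the replicate block the counts were 5, 0 and 9, in the order given. In SW480-gRNA-B-all against SW480, LGR6 was not called under the block (edgeR, adjusted p = 0.0521) and FZD2 and WNT10A were. The same-numbered libraries of these lines correlated at -0.036 for replicate 2. The 3 libraries per line, and for FZD10 the 11 counts in SW480-gRNA-B-all, limit the precision of these values.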
